A study of Mus musculus with 12 samples.

Results

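The C-type lectins of macrophages and dendritic cells described here are 10 surface receptors of mouse myeloid cells, chosen by gene symbol: Mrc1, Clec10a, Mgl2, Cd209a, Cd209f, Cd209g, Clec4n, Clec7a, Clec9a and Clec12a. Of these 10, 9 were found among the 28694 gene rows of the matrices, and Clec7a is not analysed here. Leukocytes of the brain meninges, the membranes that cover the brain, were taken from C57Bl/6j mice at postnatal day 4 and profiled one cell at a time by droplet sequencing of the 5′ ends of RNA. Cells of the HI group were collected 6 h after hypoxia-ischemia (HI), an experimental brain injury of newborns that combines reduced blood flow with low oxygen, and the naive group had no injury. Each group has 2 libraries, and each library pooled 12 mice, 6 male and 6 female. No sham-operated mice are among the samples, so surgery and handling cannot be told apart from HI. Library preparation was split over 2 runs, each with an HI and a naive library, but which library belonged to which run is not known here, so no value within a run is given.

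C-type lectins are receptors built around a fold that, in its classical form, binds sugars with the help of calcium. Some are scavenger and uptake receptors: the mannose receptor takes up glycoproteins into resident macrophages. Others signal, either by activating chains that carry an ITAM motif and recruit the kinase Syk, or by inhibitory ITIM motifs that recruit phosphatases. Border-associated macrophages (BAM) are the resident macrophages of the meninges and perivascular spaces, and the mannose receptor is a common marker of them.

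The kept cells numbered 4070 and 6081 in HI 1 and HI 2, and 4912 and 5662 in naive 1 and naive 2, with medians of 9574 to 11091 UMIs (counted RNA molecules) per cell. Cells were clustered with 70 C-type lectins left out, and clusters were named from marker genes that include none of those 70. The lectin levels below therefore played no part in naming a cell. BAM held 2777 and 4121 cells in HI 1 and HI 2, and 2655 and 3445 in naive 1 and naive 2, over 14 clusters, and the summed level of 12 BAM markers in them was 21400 and 21380 UMIs in 1000000 (CPM) in HI, against 21110 and 20870 CPM in naive libraries. Clusters 3, 12, 13 and 19 stayed unnamed: cluster 3 carried BAM markers with neuronal RNA (Tubb3, Stmn2), cluster 12 was led by Gpnmb and Spp1, cluster 13 carried BAM markers with Ccl8, Ptgds and Dcn, and cluster 19 was led by Cxcl16 and Axl. Any 2 libraries shared 29 to 55 cell barcodes, and such cells were kept as separate cells. Levels are CPM on counts summed per library and class, given per library and as mean ± SD (n = 2). UMI counts carry no adjustment for how well each gene is captured, so levels are compared between cells and not between genes.

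Mrc1 (ENSMUSG00000026712; chromosome 2, 14229414 to 14332023, GRCm38.p6), the mannose receptor, was a gene of BAM. In BAM it stood at 3334 and 3360 CPM in HI 1 and HI 2, against 2938 and 2982 CPM in naive 1 and naive 2. After thinning each cell to 3000 UMIs, 98.6% to 99.6% of BAM in the 4 libraries had an Mrc1 UMI. Unnamed clusters 3 and 13 were at 3505 ± 11.4 and 3047 ± 183 CPM in naive libraries, and cluster 19 at 1430 CPM. Microglia were far lower, at 230 and 184 CPM in HI against 258 and 232 CPM in naive libraries. Non-classical monocytes held 10.6 and 37.8 CPM in HI and 13.1 and 12.6 CPM in naive libraries, while B cells, which should lack Mrc1, held 23.6 and 147 CPM in HI and 5.48 and 25.2 CPM in naive libraries, so the monocyte values lay within the B cell range and are read as background. Small classes that should lack it also carried it. The class named oligodendrocytes (cluster 29), whose second highest marker score was for BAM, held 2822 and 2201 CPM in naive 1 and naive 2. Neurons and glia held 1368 and 2206 CPM there, and choroid plexus epithelium held 1996 and 1924 CPM (39 cells). Mature neutrophils held 139 and 14.8 CPM in HI and 737 and 285 CPM in naive libraries. The part of BAM RNA in these classes was not tested. Over the naive means of 20 classes, the genes most like Mrc1 were Stab1 (Pearson r 0.98), F13a1 (0.97) and Pf4 (0.97), a description over classes that share the same libraries.

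Clec10a and Mgl2 are the 2 mouse galactose-type lectins, which bind terminal galactose and N-acetylgalactosamine, and they lie side by side on chromosome 11 (Clec10a at 70166623 to 70170836, Mgl2 at 70130125 to 70137542). The genes are close copies, and how the deposited counts split reads that fit both is uncertain. Unlike Mrc1, both were shared between macrophages and dendritic cells. Clec10a averaged 259.6 ± 19.5 CPM in HI BAM and 225.2 ± 9.82 CPM in naive BAM, and 359 ± 36.6 CPM in HI against 273 ± 104 CPM in naive conventional dendritic cells. Mgl2 averaged 188 ± 8.89 CPM in HI BAM and 186 ± 7.37 CPM in naive BAM, and 569 ± 168 CPM in HI against 434 ± 146 CPM in naive conventional dendritic cells. Both peaked in unnamed cluster 13, at 653 CPM in HI and 560.5 CPM in naive libraries for Clec10a and at 708 CPM in HI and 829 CPM in naive libraries for Mgl2. Microglia and non-classical monocytes stayed under 7 CPM for both in every library. The genes most like Clec10a over the 20 naive class means were Timd4 (0.91), Cd163 (0.91) and Rnf150 (0.89), and those most like Mgl2 were Rbpj (0.94), Cd163 (0.90) and Tmem8 (0.90).

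The 3 Cd209 genes are mouse relatives of human DC-SIGN, a receptor of dendritic cells for mannose and fucose, and they lie within 1 stretch of chromosome 8. By cell class, Cd209a was nearly separate from Cd209f and Cd209g. Cd209a (3743395 to 3748984) belonged to conventional dendritic cells, which held 96.0% of its UMIs in HI and 97.4% in naive libraries. It stood there at 758 and 1673 CPM in HI 1 and HI 2, against 611 and 1254 CPM in naive 1 and naive 2, and at 0.29 to 0.49 CPM in BAM of the 4 libraries. Cd209f (4102784 to 4105838) and Cd209g (4134246 to 4137707) showed the reverse. Cd209f had 288 and 171 CPM in HI BAM and 332 and 239 CPM in naive BAM, and Cd209g had 33.4 and 17.3 CPM in HI BAM and 36.7 and 24.8 CPM in naive BAM. The few thinned BAM with a Cd209a UMI numbered 5 and 4 in HI and 6 and 2 in naive libraries. Of these, 100% and 75% in HI and 83.3% and 50% in naive libraries had a Cd209f UMI. In BAM without Cd209a the shares were 15.8% and 11.9% in HI and 18.5% and 15.5% in naive libraries. Reads assigned to the wrong Cd209 gene were not tested. In conventional dendritic cells Cd209f was at 0 UMIs in HI, which allows up to 1.87 CPM, and at 11.1 ± 7.32 CPM in naive libraries. B cells held no UMI of Cd209f or Cd209g, which allows up to 2.88 CPM in HI and 2.45 CPM in naive B cells. Other classes that should lack them did carry them: Cd209f stood at 0 and 29.04 CPM in HI against 729 and 30.7 CPM in naive oligodendrocytes, at 277 and 190 CPM in naive choroid plexus epithelium, and at 0 CPM in both HI libraries against 59.2 and 51.4 CPM in naive mature neutrophils. Cd209g stood at 130 and 0 CPM in naive oligodendrocytes. These are classes of few cells, and the part of BAM RNA in them was not tested. The genes most like Cd209a over the 20 naive class means were Cd209c (0.97), Tlr11 (0.94) and Cd209d (0.93). Those most like Cd209f were Cbr2 (0.94), Psd3 (0.92) and Wwp1 (0.92), and those most like Cd209g were Lrrc4 (0.90), Ap2m1 (0.89) and Tslp (0.89).

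Cd209f and Cd209g are shown by the 250 bases before the 1 start site that the RefSeq promoter table gives for each, because Cd209g was found mostly in cells that held Cd209f and these windows are near copies. The sequences are from RefSeq promoters on build GRCm38.p6, which hold 7 of the 9 lectins, and are written 5′ to 3′ on the gene's strand. The Cd209f window is chr8:4105765-4106014 on the minus strand and the Cd209g window is chr8:4134486-4134735 on the plus strand. These start sites lie inside the gene spans given above, so part of the Cd209f window and all of the Cd209g window fall within the annotated gene. Capitals mark runs of at least 12 bases present in both.
Cd209f: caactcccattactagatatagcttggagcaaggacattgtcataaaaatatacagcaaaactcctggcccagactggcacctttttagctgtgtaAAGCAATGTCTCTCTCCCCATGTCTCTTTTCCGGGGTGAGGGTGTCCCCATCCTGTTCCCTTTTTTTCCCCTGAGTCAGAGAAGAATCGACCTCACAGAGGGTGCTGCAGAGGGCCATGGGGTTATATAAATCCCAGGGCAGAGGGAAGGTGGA
Cd209g: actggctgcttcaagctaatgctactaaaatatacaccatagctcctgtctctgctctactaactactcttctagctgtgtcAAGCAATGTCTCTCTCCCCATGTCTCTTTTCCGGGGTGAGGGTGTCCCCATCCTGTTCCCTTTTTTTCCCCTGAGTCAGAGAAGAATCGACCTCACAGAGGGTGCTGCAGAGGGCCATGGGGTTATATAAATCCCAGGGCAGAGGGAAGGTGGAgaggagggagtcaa
The shared run is 154 bases long, 61.6% of each window. Aligned over 300 bases, which add the 50 after the start, the windows matched at 258 of 281 aligned positions, 91.8%, while the other 20 pairs among the 7 lectins, aligned the same way, matched at 52.2% to 65.8%. The shared run holds 1 copy of TGANTCA (here TGAGTCA, searched on both strands), as do 7.81% of the 32851 RefSeq promoters of 300 bases. With any base at N, this pattern is wider than TGA(C/G)TCA, the core that AP-1 factors bind. No GAGGAA, a core bound by the myeloid factor PU.1, was in either window, against 28.3% of all promoters. The kit reads the start of the RNA, where the 2 genes are near copies, so how reads were split between the 2 genes is uncertain.

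Clec4n, Clec9a and Clec12a make up the signalling receptors. Clec4n (Dectin-2; chromosome 6, 123229843 to 123247024) binds fungal mannans and activates Syk through the Fc receptor gamma chain. It was spread over the myeloid cells: 383 and 332 CPM in HI BAM against 290.1 and 220.4 CPM in naive BAM, 305 and 277 CPM in HI against 246 and 264 CPM in naive classical monocytes, and 257 and 279 CPM in HI against 215 and 184 CPM in naive non-classical monocytes. In naive libraries the ranges of BAM, classical monocytes and clusters 3 and 19 overlapped. Conventional dendritic cells were lower, at 113 ± 21.2 CPM in HI and 112 ± 8.53 CPM in naive libraries, and microglia were under 15 CPM in every library. The genes most like it were Clec4a1 (0.96), a neighbouring lectin family member, Tgfbi (0.95) and AI607873 (0.95).

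Clec9a (chromosome 6, 129408862 to 129424764) recognises exposed actin filaments of dead cells and is known for dendritic cells of type 1, which cross-present antigen. Of its UMIs, 96.6% in HI and 98.2% in naive libraries lay in conventional dendritic cells, at 89.2 and 56.4 CPM in HI 1 and HI 2 and 181 and 48.6 CPM in naive 1 and naive 2. Within that class, 1 of 7 subclusters (10 HI and 25 naive cells), led by the type 1 genes Xcr1, Itgae, Tlr3 and Irf8, held 98 of the 114 HI UMIs and 238 of the 271 naive UMIs. Clec9a stood there at 874 and 512 CPM in HI, against 678 and 341 CPM in naive libraries. The same 35 cells had no UMI of Mrc1, Cd209a, Clec10a or Mgl2, which allows each up to 19.9 CPM in HI and 7.49 CPM in naive libraries. Cd209a was instead at its highest in subcluster 0, at 2397 and 2675 CPM in HI 1 and HI 2 and 1822 and 2321 CPM in naive 1 and naive 2, with Mgl2 at 1203 and 1130 CPM in HI and 846 and 649 CPM in naive libraries. Clec12a was found in both subclusters, at 140 and 85.4 CPM in HI against 130 and 160 CPM in naive libraries in the type 1 cells and at 49.8 and 66.7 CPM in HI against 88.7 and 90.6 CPM in naive libraries in subcluster 0. Naive 1 had 17 cells in the type 1 subcluster, against 8 in naive 2, 3 in HI 1 and 7 in HI 2, and its class level of Clec9a was also the highest. Subcluster 5 (18 cells) led with the BAM genes Pf4, Lyve1 and Stab1 and had Mrc1 at 1709 CPM in HI and 1465 CPM in naive libraries; the part of BAM RNA in this class was not tested. The genes most like Clec9a over the classes were Ccl22 (0.99), Tlr11 (0.99) and Xcr1 (0.97).

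Clec12a (chromosome 6, 129349783 to 129365303) is an inhibitory receptor with an ITIM motif that senses uric acid crystals and dampens neutrophil and macrophage activation. In naive libraries it was highest in immature neutrophils (345 and 425 CPM), then in classical monocytes (245 and 218 CPM), cluster 19, non-classical monocytes and mature neutrophils, the last 3 of which overlapped. Conventional dendritic cells followed at 117 ± 2.90 CPM and BAM at 37.5 ± 2.26 CPM, and microglia were at 4.21 ± 1.10 CPM. BAM are the largest class, so they still held 49.9% of all Clec12a UMIs in HI and 52.2% in naive libraries. Naive B cells held 9.14 and 53.3 CPM, so BAM were not above the B cells in every library. The genes most like Clec12a were Cybb (0.86), Pilrb2 (0.81) and D1Ertd622e (0.81).

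**Figure D1:**
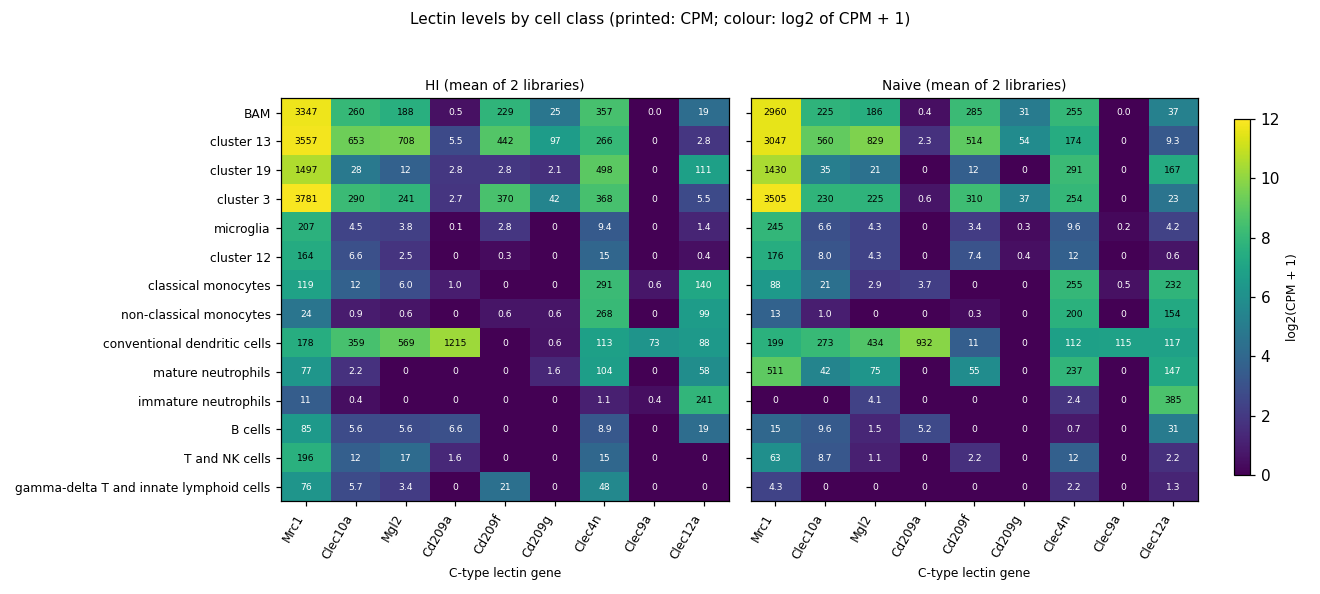
Mean level of each lectin (columns) in the 14 classes and unnamed clusters with at least 10 cells in every library (rows). CPM are printed in the cell and log2(CPM + 1) is the colour, HI on the left and naive on the right (2 libraries each). Oligodendrocytes, choroid plexus epithelium, neurons and glia, basophils and mast cells, pre-B cells and fibroblasts are not drawn. Some of these held Mrc1, Cd209f and Cd209g, as given in the text. Among the rows drawn, Cd209a and Clec9a fill the row of conventional dendritic cells and Cd209f and Cd209g fill BAM and clusters 3 and 13. Clec12a is highest in immature neutrophils and monocytes.

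Among the BAM clusters the lectins did not all vary together. Clec10a and Mgl2 ran alike, with both high in clusters 4, 5, 11 and 17 and low in clusters 1, 8 and 16. Cd209f and Cd209g were both high in clusters 0, 4, 5, 6 and 9 and low in clusters 1 and 15. Other pairs differed. Over the 13 BAM clusters with at least 40 naive cells, the naive mean of Mrc1 ran from 1314 CPM in cluster 17 (Wfdc17, Timd4) to 3800 CPM in cluster 0 (Tslp, Il18), a ratio of 2.89. Clec10a spanned 45.8 CPM in cluster 1 (Vcam1, Axl) to 469.7 CPM in cluster 17, a ratio of 10.3, so the cluster lowest in Mrc1 was the highest in Clec10a. Mgl2 was also lowest in cluster 1 (25.8 CPM). Its highest mean was in cluster 11 (312.7 CPM), whose leading genes are Hmox1 and the iron exporter Slc40a1. Clusters 17 and 5, at 308 and 306 CPM, overlapped cluster 11 over the naive libraries, so a single peak is not resolved. Cluster 11 was highest in Clec4n as well, at 668 CPM against 131 CPM in the dividing cluster 16, and lowest in Clec12a, at 7.64 CPM. Clec12a had its highest mean in cluster 1 at 88.0 CPM, where both galactose-type lectins were lowest. Cluster 16, at 80.5 CPM, overlapped cluster 1 over the naive libraries. The naive mean of Cd209f ran from 90.8 CPM in the dividing cluster 15 to 484 CPM in cluster 5 (Bmp2, Cd163). Each of these overlapped another BAM cluster over the naive libraries.

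**Figure D2:**
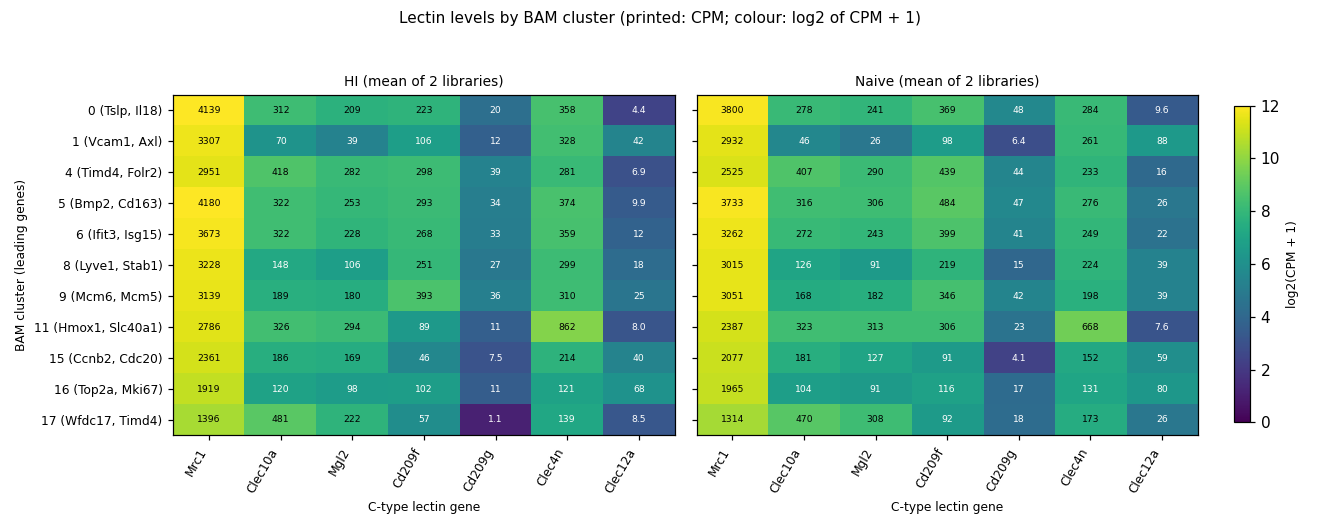
Mean level of 7 lectins (columns) in the 11 BAM clusters with at least 40 cells in every library (rows, with leading genes), as CPM printed in the cell and log2(CPM + 1) as colour, HI on the left and naive on the right. Cluster 1 is low in Clec10a and Mgl2 and high in Clec12a, and cluster 11 is high in Clec4n, in HI and in naive libraries.

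BAM are often divided by Lyve1 and MHC class II. In these libraries 0 of 12998 BAM reached the MHC class II threshold of 10 UMIs in 10000 (H2-Aa, H2-Ab1 and H2-Eb1 summed), which allows up to 0.0231% of BAM. The highest BAM had 2.22, against a median of 268 in conventional dendritic cells. H2-Aa, H2-Ab1 and H2-Eb1 were also markers for naming dendritic cells, so macrophages rich in them could be classed there. Subcluster 5 of that class (18 cells) led with BAM genes, as given above. The 0 and its limit cover only cells classed as BAM, and MHC class II high macrophages in other classes were not counted. Lyve1 high cells were 88.8% and 88.8% of BAM in HI 1 and HI 2, against 83.4% and 84.6% in naive 1 and naive 2, and the rest were low for both markers or dividing. In naive libraries Cd209f was at 319 CPM in Lyve1 high, 114 CPM in double low and 135 CPM in dividing BAM. Clec12a was at 33.4 CPM in Lyve1 high and 36.6 CPM in double low BAM, and at 67.6 CPM in dividing BAM. Clec10a was at 235 and 266 CPM in the Lyve1 high and double low gates and at 137 CPM in dividing BAM.

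The lectins also differed in how they were shared out among single BAM. At 3000 UMIs per cell, Clec10a was found in 46.2% and 42.7% of BAM in HI 1 and HI 2 and in 39.6% and 39.0% in naive 1 and naive 2, with 1.71 to 1.84 UMIs in each positive cell. Cd209f was found in 15.9% and 11.9% of BAM in HI and in 18.6% and 15.5% in naive libraries, with 4.19 to 5.28 UMIs in each positive cell and up to 48 in 1 cell. Before thinning the shares were 19.8% and 15.99% in HI and 23.1% and 19.1% in naive libraries. The variance of Cd209f UMIs over cells was 8.69 to 10.04 times their mean, against 1.68 to 1.84 times for Clec10a, 1.18 to 1.36 times for Clec12a and 2.45 to 2.93 times for Mrc1. Within clusters the ratio for Cd209f was still 8.63 to 9.93, so the spread was about as wide within clusters as over all BAM. In B cells, taken as the background, Clec10a was found in 0% to 3.33% of cells over the 4 libraries, and no B cell had a Cd209f UMI, at a median depth of 7837 to 10050 UMIs, against 9711 to 11150 UMIs in BAM. The top 10% of BAM held 86.2% to 96.2% of Cd209f UMIs in the 4 libraries.

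Cd209g was found in the same cells. Of BAM with a Cd209f UMI, 29.2% and 23.4% in HI 1 and HI 2 and 26.5% and 20% in naive 1 and naive 2 also had a Cd209g UMI. Of BAM without one, 0.514% and 0.358% in HI and 0.509% and 0.550% in naive libraries did. By contrast, 45.3% and 45.2% of Clec10a-positive BAM in HI 1 and HI 2 had an Mgl2 UMI, against 25.2% and 26.2% of Clec10a-negative BAM, with 46.4% and 47.8% against 23.8% and 26.8% in naive libraries. The pairing of Cd209f and Cd209g stands beside the near-identical windows printed above, and how much of it comes from reads assigned to the wrong copy was not tested.

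**Figure D3:**
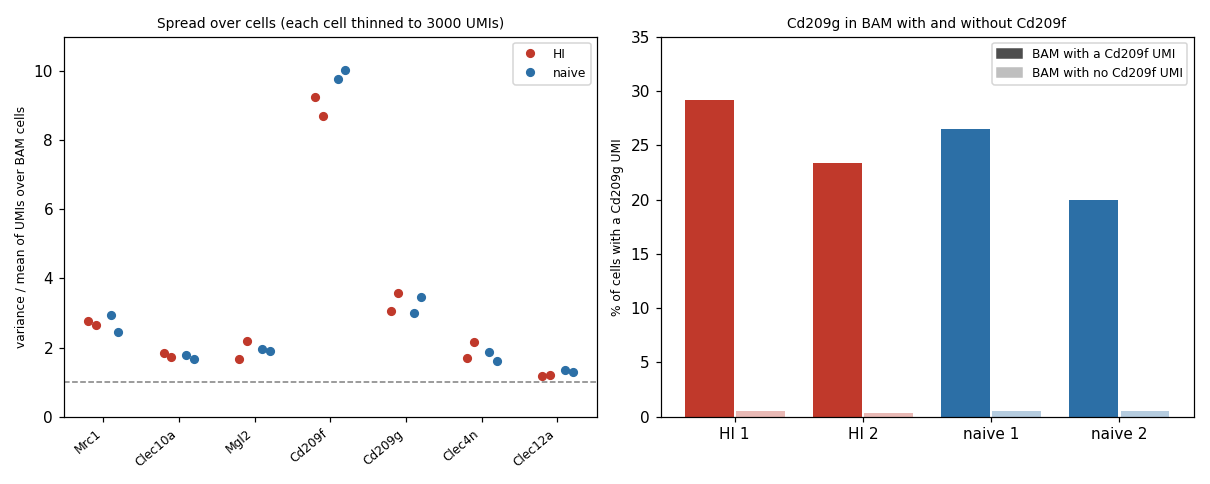
Left: variance over mean of UMIs among BAM cells for 7 lectins, 1 point per library, with 1 (dashed) as the value of random counts; right: share of BAM with a Cd209g UMI among cells with (dark) and without (pale) a Cd209f UMI in each library. Cd209f sits at 8.69 to 10.04, above every other lectin, and Cd209g is found almost wholly beside it.

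HI was then compared with naive, per library and class, with edgeR's quasi-likelihood test over all genes that passed its filter on low counts (called: Benjamini-Hochberg adjusted p at or under 0.05). Clec12a fell in BAM and in non-classical monocytes, and none of the other 8 passed within a cell class. In BAM, 8 of the 9 lectins passed the filter (Clec9a, with 3 UMIs, did not) and 1 was called, against 3.2% of all 12735 genes. The median log2 change of the 8 was 0.10, against 0.00 over all genes. For 2 libraries against 2, permutations allow no exact 2-sided p under 0.33, so single genes rest on the fit across all genes. The p-values measure only the spread between these pooled libraries.

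Clec12a in BAM stood at 21.4 and 16.1 CPM in HI 1 and HI 2, against 39.1 and 35.9 CPM in naive 1 and naive 2. Both HI libraries lay under both naive libraries. The log2 change was −0.996 (SE 0.12, edgeR adjusted p = 0.0117), from 1397 UMIs in HI and 2572 UMIs in naive BAM. In the 14 other fits tried, the change ran from −1.18 to −0.82 and the adjusted p did not exceed 0.0404. HI shifted the make-up of BAM, with cluster 10 (Ccl12, Ccl7, Tnf) at 12.2% and 8.47% of HI BAM against 0.942% and 1.02% of naive BAM. Cluster 10 had 25 and 35 naive cells and is not among the 11 clusters with at least 40 cells in every library. Weighting those 11 equally gave a log2 change of −0.89 (SE 0.15, limma adjusted p = 0.00972). In 9 of these 11 clusters both HI libraries were under both naive libraries, the exceptions being cluster 11 and the dividing cluster 16. The clusters share the same libraries, so they are not separate replicates, and the share of all genes with such a count was not computed. In cluster 1, where its naive mean was highest, Clec12a had 42.2 and 41.4 CPM in HI against 83.4 and 92.7 CPM in naive libraries. The naive libraries of cluster 16, an exception named above, held 93.9 and 67.1 CPM and overlapped these. The summed markers of mature neutrophils in BAM were 53.5 and 58.3 CPM in HI and 81.1 and 48.4 CPM in naive libraries, those of immature neutrophils were 5.15 and 40.4 CPM in HI against 64.0 and 10.3 CPM in naive libraries, and all 8 of each list had UMIs in BAM. Both overlapped between the groups. The summed classical monocyte markers were higher in both HI libraries, at 3210 and 3268 CPM against 2204 and 2349 CPM in naive BAM. The monocyte list shares F13a1 with the BAM list, so this sum also counts a BAM gene and is not a measure of monocyte RNA alone. The 10 markers of dividing cells were lower in HI, at 323 and 409 CPM against 514 and 539 CPM. Clec12a stood at 231.5 CPM in naive classical monocytes and 67.6 CPM in naive dividing BAM. In Lyve1 high BAM, from which dividing cells are gated out, the log2 change was −1.02, and the part of monocyte RNA was not tested. At 3000 UMIs per cell, 4.75% and 3.76% of BAM in HI 1 and HI 2 had a Clec12a UMI, against 9.68% and 8.74% in naive 1 and naive 2; unthinned, the shares were 15.6% and 10.6% against 25.4% and 23.02%. B cells had thinned shares of 6.67% and 3.57% in HI and 3.51% and 12.7% in naive libraries, and the BAM shares of all 4 libraries lay within that range.

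The same direction was seen outside BAM. Non-classical monocytes had 106 and 92.4 CPM of Clec12a in HI against 168 and 139 CPM in naive libraries (log2 change −0.67, SE 0.14, edgeR adjusted p = 0.00880), the only call among 3 lectins tested there, where 1.81% of all 8060 genes were called. That call ended with DESeq2 (adjusted p = 0.0792), with the lectins kept for clustering (edgeR adjusted p = 0.0838) and in edgeR without HI 2 (0.119), naive 1 (0.104) or naive 2 (0.356), each with the level still lower in HI. Classical monocytes had 145 and 134 CPM in HI against 245 and 218 CPM in naive libraries (−0.74, edgeR adjusted p = 0.101), and 0 of 4 lectins were called there, against 0.565% of all genes. Microglia had 1.81 and 0.94 CPM in HI against 3.43 and 4.99 CPM in naive libraries (−1.66, edgeR adjusted p = 0.0533), with 0 of 6 lectins called against 3.57% of all genes. Conventional dendritic cells had 82.2 and 93.6 CPM in HI against 115 and 119 CPM in naive libraries (−0.38, edgeR adjusted p = 1). In that class 0 of 7 lectins and 0% of all 7246 genes were called, 295 genes had an unadjusted p under 0.05 in edgeR, none of them one of these 7, and DESeq2 called 0 genes.

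Neutrophils were too few for the fit, and their values are given as they stand. Mature neutrophils had 54.7 and 62.0 CPM of Clec12a in HI against 158 and 135 CPM in naive libraries, from 81 and 53 UMIs. Immature neutrophils had 233 and 249 CPM in HI against 345 and 425 CPM in naive libraries. Over all 14 classes and unnamed clusters with at least 10 cells in every library, 11 had at least 10 Clec12a UMIs, and in 10 of these both HI libraries were under both naive libraries. B cells were the exception, at 31.5 and 6.05 CPM in HI and 9.14 and 53.3 CPM in naive libraries. All classes come from the same libraries and are not replicates of each other, and the same count over all genes was not made.

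Clec12a is shown because it was the lectin that fell, by the 250 bases before the start site in the RefSeq promoter table, which lies inside the gene span given above, so the whole window falls within the annotated gene. The window, from RefSeq on GRCm38.p6, is chr6:129349994-129350243 on the plus strand, and capitals mark 2 copies of GAGGAA (1 on the other strand, read here as TTCCTC) and 1 of TGANTCA. The last is TGAATCA, which has neither C nor G at N and so is not the AP-1 core itself.
Clec12a: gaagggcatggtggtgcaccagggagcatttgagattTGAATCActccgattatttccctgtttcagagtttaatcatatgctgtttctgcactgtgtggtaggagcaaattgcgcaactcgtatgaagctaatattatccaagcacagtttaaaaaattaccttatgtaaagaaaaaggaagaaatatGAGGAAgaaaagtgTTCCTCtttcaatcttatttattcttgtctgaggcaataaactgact
GAGGAA is found in 28.3% and TGANTCA in 7.81% of RefSeq promoters of 300 bases, and a match is a description of the letters only. CACGTG, bound by E-box factors, ACGTG, the core of the hypoxia response element, and TTCNNNGAA, the STAT core, were not in the window, against 7.15%, 19.6% and 8.30% of all promoters.

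**Figure D4:**
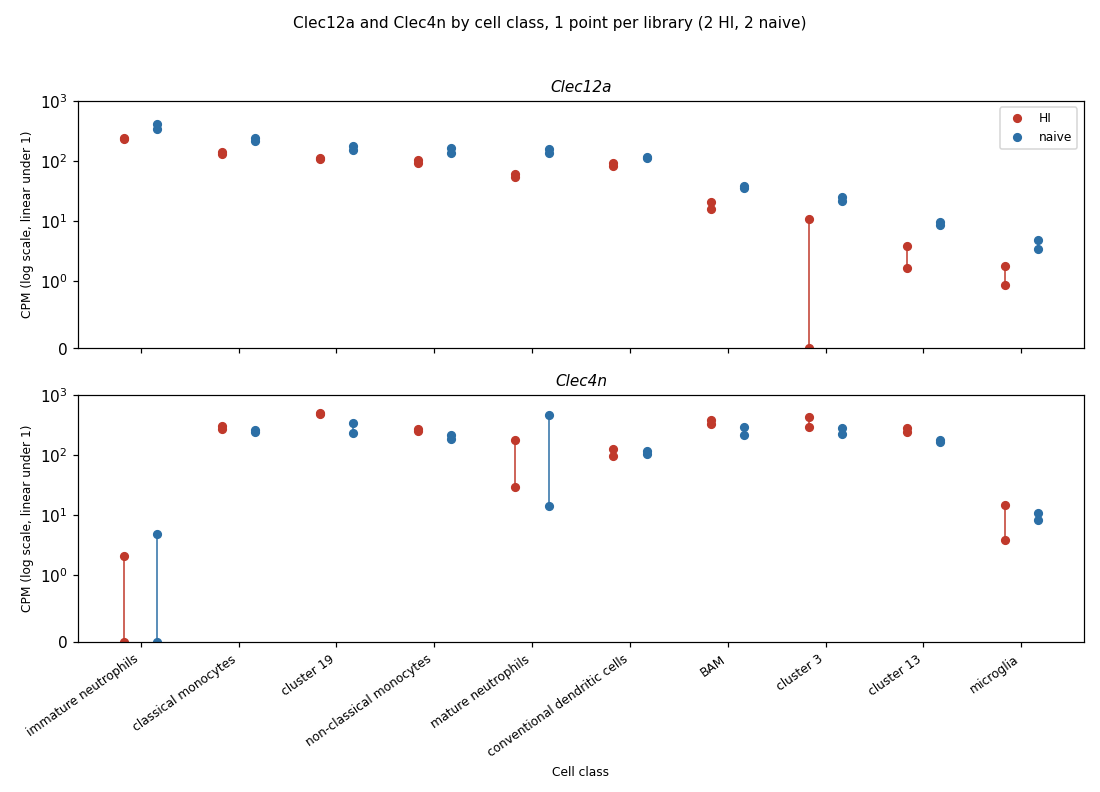
Clec12a (top) and Clec4n (bottom) in 10 cell classes, 1 point per library (HI left and red, naive right and blue), on a log axis that is linear under 1 CPM. Clec12a is lower in both HI libraries than in both naive libraries in the 10 classes drawn, which leave out B cells (31.5 and 6.05 CPM in HI, 9.14 and 53.3 CPM in naive libraries); Clec4n is higher in both HI libraries in BAM, classical and non-classical monocytes and clusters 3, 13 and 19.

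The gates of BAM gave the same picture for Clec12a. In Lyve1 high BAM it had 19.5 and 13.8 CPM in HI against 35.2 and 31.5 CPM in naive libraries (log2 change −1.02, edgeR adjusted p = 0.0124), the only call among 8 lectins, where 3.53% of all genes were called. In double low BAM it had 9.83 and 11.6 CPM in HI against 31.8 and 41.4 CPM in naive libraries (−1.77, SE 0.26, edgeR adjusted p = 0.00700), the only call among 7 lectins, against 0.44% of all genes. In dividing BAM it had 55.7 and 42.5 CPM in HI against 72.1 and 63.2 CPM in naive libraries (−0.48, edgeR adjusted p = 0.187), and 0 of 7 lectins were called, against 1.11% of all genes.

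The other lectins did not pass in BAM, though several pointed upwards. Clec4n had 383 and 332 CPM in HI against 290.1 and 220.4 CPM in naive BAM (log2 change 0.49, SE 0.13, edgeR adjusted p = 0.0889), and in non-classical monocytes 257 and 279 CPM in HI against 215 and 184 CPM in naive libraries (0.41, adjusted p = 0.0784). The equal weighting of clusters gave 0.30 (limma adjusted p = 0.177). In BAM it passed without HI 2 (0.57, edgeR adjusted p = 0.00622), without naive 1 (0.70, 0.0157) and with no filter on low counts. Clec10a had 273 and 246 CPM in HI against 232 and 218 CPM in naive BAM (0.21, SE 0.06, edgeR adjusted p = 0.127). In double low BAM it went the other way, at 229 and 146 CPM in HI against 253 and 279 CPM in naive libraries (−0.52, SE 0.17, edgeR adjusted p = 0.293). With clusters 3, 13 and 29 counted as BAM, Clec10a passed in BAM (0.27, edgeR adjusted p = 0.0453). Cluster 29 is the class named oligodendrocytes. Without HI 2 the log2 change in BAM was 0.27. Mrc1 had a log2 change of 0.19 (SE 0.06, edgeR adjusted p = 0.143). Mgl2 differed by 0.02 on the log2 scale (SE 0.06, edgeR adjusted p = 0.888).

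Cd209f and Cd209g were more spread between libraries than these changes. Their log2 changes in BAM were −0.31 (SE 0.24, edgeR adjusted p = 0.505) and −0.29 (SE 0.29, adjusted p = 0.629), and HI 1 lay between the 2 naive libraries for both. Without HI 1 both passed, at −0.71 (edgeR adjusted p = 0.0195) and −0.80 (0.0296). In 4 of the 11 clusters Cd209f was lower in both HI libraries than in both naive ones, among them cluster 11 with 90.6 and 86.9 CPM in HI against 367 and 246 CPM in naive libraries. Here too the clusters share the same libraries, and the share over all genes was not computed. Cd209a was a trace in BAM, with 35 UMIs in HI and 26 UMIs in naive libraries. In conventional dendritic cells the log2 changes were 0.43 for Cd209a (SE 0.43), 0.43 for Mgl2 (SE 0.29), 0.43 for Clec10a (SE 0.26) and −0.67 for Clec9a (SE 0.53), with adjusted p = 1 in edgeR for each, from 49 to 82 cells per library.

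**Figure D5:**
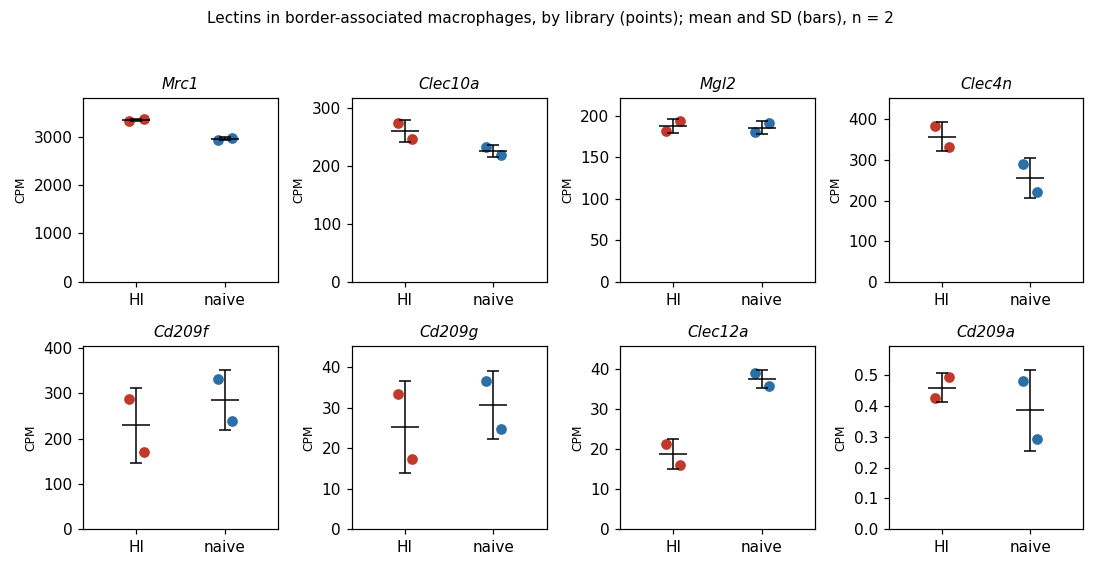
Level of 8 lectins in BAM (CPM, axes from 0), 1 point per library with the mean and SD as bars, HI left and naive right. Clec12a is the lectin whose HI libraries, at 21.4 and 16.1 CPM, stand well below the naive ones, at 39.1 and 35.9 CPM; Cd209f, Cd209g and Cd209a overlap between the groups.

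Whether the response to HI differed between classes was tested as an interaction in edgeR. Mrc1 was the 1 lectin of 7 called between BAM and microglia, where 1.68% of all genes were called, and the 1 of 7 called between BAM and non-classical monocytes, where 1.74% were. Its change was 0.46 higher in BAM than in microglia on the log2 scale (SE 0.11, edgeR adjusted p = 0.0328). Microglia had 230 and 184 CPM in HI against 258 and 232 CPM in naive libraries, while the summed BAM markers in microglia were 1483 and 990.1 CPM in HI and 1488 and 1477 CPM in naive libraries; the part of BAM RNA in the microglial Mrc1 was not tested. This call ended without HI 2 (0.26, edgeR adjusted p = 0.0598) and without naive 1 (0.40, 0.317). Against non-classical monocytes the difference was −0.89 (SE 0.23, edgeR adjusted p = 0.0192), from monocyte values that, as given above, lay at the B cell level, and the call held in 3 of 6 alternatives. Without HI 2 the difference turned to 0.57 (edgeR adjusted p = 0.912), and the call ended without naive 1 (−0.91, 0.256) and without naive 2 (−0.85, 0.641). For Clec12a the differences were 0.66 (SE 0.42, edgeR adjusted p = 0.613) against microglia and −0.36 (SE 0.15, adjusted p = 0.323) against non-classical monocytes.

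Of the other C-type lectins, 26 were tested in BAM, where 3 rose and 0 fell, against 3.2% of all genes called. Their median log2 change was 0.11, against 0.00 over all genes. Clec4e (Mincle), which senses damage and mycobacterial glycolipid and signals through the Fc receptor gamma chain, rose but stayed a trace: it had 1.48 and 2.18 CPM in HI against 0.16 and 0.13 CPM in naive BAM (log2 change 3.65, edgeR adjusted p = 0.00787), from 142 UMIs in HI and 10 UMIs in naive BAM. Mature neutrophils held Clec4e at 383 and 190 CPM in HI and 178 and 46.7 CPM in naive libraries, and the part of neutrophil and monocyte RNA in the BAM value was not tested. In classical monocytes, which held it at 469 and 268 CPM in HI against 75.7 and 57.0 CPM in naive libraries, Clec4e rose as well (2.45, edgeR adjusted p = 0.0200), 1 of 16 lectins tested against 0.565% of all genes. The summed markers of mature neutrophils in classical monocytes were 8045 and 8430 CPM in HI and 1814 and 2505 CPM in naive libraries, with UMIs of 8 of 8 markers, and those of immature neutrophils were 229 and 353 CPM in HI and 53.8 and 79.1 CPM in naive libraries. The part of neutrophil RNA in this value was not tested. Cd302 (0.33, edgeR adjusted p = 0.0464) and Cd209b (0.79, adjusted p = 0.0282) were the other 2 in BAM. The 4 most abundant lectins outside the member list in naive BAM were Clec4a2, Colec12, Clec4a1 and Clec4a3, and none passed there. In non-classical monocytes 2 of 12 rose, against 1.81% of all genes called. Among them was Clec4a2, an inhibitory receptor, with 140 and 159 CPM in HI against 77.2 and 80.5 CPM in naive libraries (0.91, edgeR adjusted p = 3.85e-04). In microglia 1 of 11 rose, Clec2d (0.41, edgeR adjusted p = 0.0441), against 3.57% of all genes called. In conventional dendritic cells 0 of 19 passed, against 0% of all genes.

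The genes that carry lectin signals did not pass in any class. Of 20 tested in BAM, among them Syk, Card9 and Fcer1g, 0 rose and 0 fell, against 3.2% of all genes called. In edgeR 5 of the 20 had an unadjusted p under 0.05. Syk, the kinase, had 78.5 and 78.2 CPM in HI against 90.3 and 92.0 CPM in naive BAM, and Fcer1g, the chain used by Clec4n and Clec4e, had 4916 and 4840 CPM in HI against 5023 and 4925 CPM in naive BAM. Of 16 tested genes of alternative activation, the state for which Mrc1 is a classical marker, 1 rose in BAM, against 3.2% of all genes called. It was Il4ra, the interleukin-4 receptor chain, with 249 and 228 CPM in HI against 143 and 149.7 CPM in naive libraries (log2 change 0.71, SE 0.06, edgeR adjusted p = 0.00521). Il4ra rose in microglia (0.68, edgeR adjusted p = 0.00165) and in non-classical monocytes (0.77, adjusted p = 0.0416) as well. In microglia Arg1, arginase, rose, with 59 UMIs in HI and 2 UMIs in naive libraries (4.78, edgeR adjusted p = 5.71e-04), and Fn1, fibronectin, rose (2.38, adjusted p = 0.0136), 3 of 11 in all, against 3.57% of all genes called. Of 10 tested in double low BAM, where 0.44% of all genes were called, 1 rose, again Il4ra, and 2 fell: Retnla (−5.01, edgeR adjusted p = 2.21e-04) and Cd36, a scavenger receptor (−0.82, adjusted p = 0.0199). Over all BAM neither was called: Retnla changed by −0.46 (SE 0.71, edgeR adjusted p = 0.760) and Cd36 by −0.59 (SE 0.15, adjusted p = 0.0890).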

How the data were processed

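Leukocytes of mouse meninges were profiled by droplet single-cell RNA sequencing in 2 HI and 2 naive libraries. The deposited matrices hold UMI counts per gene and cell, made by the authors with Cell Ranger 2.2.0 on mm10 (GRCm38), per the submitters' processing notes, which also name Seurat. Antigen receptor libraries were not used here, and Clec7a is not analysed here. Total counts were 51986763 to 68543046 UMIs per library. Intervals and limits from counts of 0 (3 counts) cover counting error only.

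Barcodes under 200 genes or over 10% mitochondrial UMIs were dropped, and the cells ranking highest by doublet score were removed at 0.8% per 1000 cells, since the caller's automatic threshold marked very few. Cells were clustered with scanpy 1.11.5 and leidenalg 0.10.2 (2000 variable genes without 70 lectins, 40 components, 20 neighbours, resolution 1.5, giving 34 clusters). A cluster was named where at least 3 markers and 60% of a list were detected and its score reached 0.35. These naming thresholds, the oligodendrocyte markers, the ranking of doublets and the alternatives that add or leave out clusters or weight them equally were chosen after seeing the data. Dividing, MHC class II high and Lyve1 high BAM were gated at 5, 10 and 2 UMIs per 10000.

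Counts summed per library and class with at least 40 cells in every library were tested with edgeR 4.0.16 (quasi-likelihood, TMM, Benjamini-Hochberg at 0.05). DESeq2 1.42.0, limma 3.58.1 on log2 values, other scaling, no filter, other cell filters and clusterings, a replicate block and leaving out each library were alternatives. Scripts were tested on simulated data. All 9 members are named, with the 3 genes most like each by Pearson r over 20 naive class means, and genes of 3 other lists that passed, of which 1 is not reported here. The members and lists were chosen with earlier results of these data known.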

Additional observations from a re-analysis of the deposited data

Results flagged for a closer look

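The response of Mrc1 to HI differed between BAM and microglia by 0.463 on the log2 scale (edgeR interaction, adjusted p = 0.0328): both HI libraries were above both naive libraries in BAM, while the microglial values of 230 and 184 CPM in HI and 258 and 232 CPM in naive libraries were lower in HI. The call ended without HI 2 (0.26, edgeR adjusted p = 0.0598) and without naive 1 (0.40, 0.317). The summed BAM markers in microglia were 1483 and 990.1 CPM in HI and 1488 and 1477 CPM in naive libraries, and their part was not tested.

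Between BAM and non-classical monocytes the change in Mrc1 differed by −0.8943 (edgeR interaction, adjusted p = 0.0192), called in 3 of 6 alternatives and turned to 0.57 without HI 2. The monocytes held 10.6 and 37.8 CPM in HI and 13.1 and 12.6 CPM in naive libraries, within the B cell range.

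Clec10a was higher in both HI libraries than in both naive libraries in BAM, and lower in both in classical monocytes, which had 12.97 and 11.4 CPM in HI and 22.8 and 18.99 CPM in naive libraries. The difference between the 2 changes was 0.9335 on the log2 scale with a pseudocount of 1 CPM, and it was not tested. The monocyte values came from 32 UMIs in HI and 43 UMIs in naive libraries, and the monocyte change was not called. Naive B cells, taken as the background, held 0 and 19.2 CPM of Clec10a. The part of background in the monocyte values was not tested.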

How the results depend on the processing

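Over 64 results for single lectins and 625 alternatives, 554 kept their side of the threshold, 60 newly passed and 9 no longer passed. Another 2 turned direction where the reported or the alternative fit passed. The 554 include changes of direction where neither fit passed. Mgl2 in BAM, for example, ran from −0.05 to 0.11 and never passed. Clec12a in BAM passed in 14 of 14. Counts of genes called moved more. With no filter on low counts they were 1782 in BAM (408 in the reported fit), 399 for BAM minus microglia (210), 1539 in Lyve1 high BAM (437), 429 in classical monocytes (43), 97 in conventional dendritic cells (0), 390 in dividing BAM (113), 21 in double low BAM (40), 607 in microglia (379) and 238 in non-classical monocytes (146). DESeq2 called 68 genes in classical monocytes, 140 in microglia and 50 in non-classical monocytes; in BAM it called 579, of which 369 were shared with edgeR. Adding clusters 3, 13 and 29 gave 706 in BAM, keeping lectins for clustering gave 21 in classical monocytes, and resolution 1.0 gave 32 in conventional dendritic cells, while it left no value for classical monocytes. An interaction between Lyve1 high and MHC class II high BAM could not be run, since no BAM was in the second gate.

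With the replicate number as a block, counts called were 1617 in BAM, 988 in Lyve1 high BAM, 221 in classical monocytes, 31 in conventional dendritic cells, 189 in dividing BAM, 689 in microglia and 362 in non-classical monocytes. The libraries share only a number: deviations of HI 1 and naive 1 correlated at −0.009 in BAM and at 0.065 to 0.18 in the other 4 classes, over 2 pairs. Under this replicate block Clec4n (0.50, edgeR adjusted p = 0.00209) and Clec10a (0.21, 0.0215) were called higher in BAM, and Cd209f (−0.34, 0.0114) and Cd209g (−0.31, 0.0400) lower.

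Leaving out 1 library at a time gave 67 (without naive 2) to 1334 (without HI 2) genes in BAM, 31 to 382 for BAM minus microglia, 69 to 176 for BAM minus non-classical monocytes (215), 123 to 1549 in Lyve1 high BAM, 35 to 303 in classical monocytes, 0 to 19 in conventional dendritic cells, 62 to 214 in dividing BAM, 75 to 273 in double low BAM, 278 to 553 in microglia and 1 (without naive 2) to 248 in non-classical monocytes. Mrc1 turned direction, with the reported or the alternative fit passing, in 2 of these. For BAM minus non-classical monocytes the range was −1.33 to 0.5655, the upper value without HI 2. In classical monocytes it was −2.09 to 1.29, the lower value without HI 1 against 0.38 with all libraries. The cause was not tested. The values with the least behind them are those of conventional dendritic cells, with 49 to 82 cells per library, and Clec12a in HI microglia, with 14 UMIs.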
